A study of Sus scrofa with 31 samples.

Results

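The 7 genes described here encode lysosomal proteases of pig microglia and macrophages: cathepsin D (CTSD), cathepsin B (CTSB), cathepsin S (CTSS), cathepsin L (CTSL), cathepsin H (CTSH), cathepsin Z (CTSZ) and legumain (LGMN). They were chosen by name, and their Ensembl identifiers were read from the gene name column of the study's supplementary tables. All 7 had an identifier there and a row in the table of 31907 genes. Many of those supplementary tables list genes that the study itself called in these samples, and together they name 3689 genes. The choice of members was thus not independent of the differences described below. RNA had been sequenced from 31 samples of 15 pigs: 8 each of cerebellar, frontal cortex and hippocampal microglia, 3 of alveolar macrophages and 4 of unsorted hippocampal tissue. The pigs were male piglets of Large White × Landrace sows and Danish Duroc semen, taken a few days after a weaning diet was first offered and sedated for imaging beforehand. They came from litters born into either of 2 kinds of housing, and the labels do not say which pig had which. Microglia were sorted from brain cell suspensions as cells high in CD11b and low in or without CD45, and alveolar macrophages from lung lavage as F4/80-positive cells with low or no CD163. The hippocampal tissue was not sorted, and its RNA was stabilised and extracted with another kit than that of the cells, so that sorting and extraction cannot be told apart from the comparison with tissue.

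Cathepsins and legumain are made as inactive precursors, are carried to the lysosome and are activated there by its acidity. Together they digest proteins that a phagocyte has taken up and proteins of the cell's own turnover. In cells that present antigen they also cut the invariant chain CD74, which blocks the peptide groove of MHC class II molecules until it is removed. CTSD is an aspartic protease. CTSB, CTSS, CTSL, CTSH and CTSZ are cysteine proteases of the papain family, and LGMN is a cysteine protease of another family that cuts after asparagine and also matures other cathepsins. Cystatins are the natural inhibitors of the cysteine cathepsins, and some of them also block LGMN.

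Expression is given as CPM, the counts of a gene scaled to the same library total with TMM factors. Total counts were 18438494 to 43477403 per sample, and 3 counts, the floor used here, came to 0.064 to 0.146 CPM. The markers of the labelled cell types were checked. The summed CPM of 6 microglia markers was 3496 to 7269 in the 24 microglia samples and 159.8 to 330.1 in alveolar macrophages, and that of 4 markers of border and systemic macrophages was 1.31 to 30.6 and 619 to 1073. Alveolar macrophages had 295.8 to 573 CPM of CD163 mRNA. The low or absent CD163 of the sort label refers to antibody staining of the protein, which is another measure. They also held the most of 8 lymphoid markers (878 to 1460 summed CPM, against 66.7 to 199.9 in microglia) and of 4 granulocyte markers (379.9 to 833, against 2.79 to 38.5). The part of these other cells in the values of alveolar macrophages was not tested. In the 24 microglia samples, oligodendrocyte markers summed to 133.6 to 1662 CPM and neuron markers to 2.367 to 135.6. Tissue had 10780 to 21300 and 1588 to 1816. Astrocyte markers summed to 158.3 to 467 CPM in microglia and 2305 to 3694 in tissue. Endothelium markers (1.997 to 18.97 CPM in microglia) were also highest in tissue.

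On the Sscrofa11.1 assembly with RefSeq annotation, CTSD lies at chr2:1188548-1197642 on the minus strand, CTSB at chr14:15014139-15035081 (minus), CTSS at chr4:98415273-98442952 (plus), CTSL at chr10:27668523-27674705 (minus), CTSH at chr7:48084882-48106072 (minus), CTSZ at chr17:59141497-59149377 (minus) and LGMN at chr7:114176217-114210096 (minus). The annotated exons covered 1418 bases in CTSL and CTSZ, 1425 in CTSH, 1985 in LGMN, 2015 in CTSD, 2913 in CTSB and 4054 in CTSS. RefSeq also lists CTSL as a synonym of CTSV, a related gene on the same chromosome. How reads were divided between CTSL and CTSV was not tested.

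The bases upstream of the start shared by most RefSeq transcripts were read for the 7 genes, because many lysosomal genes carry the E-box CACGTG, which the transcription factors TFEB and TFE3 bind. In windows of 300 bases, on both strands, CACGTG was found in 1 of the 7, CTSB, and in 7.25% of 19548 promoters of the same length. The longer form TCACGTGA (0.813% of promoters), GAGGAAGT, a site of the ETS factor PU.1 (1.94%), and TGACTCA, an AP-1 site (3.35%), were found in none of the 7. The match in CTSB lay at bases -40 to -35 before the start that 3 of its 8 transcripts share, and 279 of the 300 bases of its window lie in an annotated exon of a transcript that starts further upstream. The 30 bases around it are shown because CTSB was the member that differed between brain regions, with the motif in capitals (chr14:15034825-15034854, minus strand). The upstream window of CTSD, the most abundant member in every group, held no match and is shown for comparison (chr2:1197643-1197942, minus strand). GC made up 84.7% of it, against 68.0% for CTSB and 37.3% for CTSS.
CTSB: agctgccctggtCACGTGgcgagtcaggcg
CTSD: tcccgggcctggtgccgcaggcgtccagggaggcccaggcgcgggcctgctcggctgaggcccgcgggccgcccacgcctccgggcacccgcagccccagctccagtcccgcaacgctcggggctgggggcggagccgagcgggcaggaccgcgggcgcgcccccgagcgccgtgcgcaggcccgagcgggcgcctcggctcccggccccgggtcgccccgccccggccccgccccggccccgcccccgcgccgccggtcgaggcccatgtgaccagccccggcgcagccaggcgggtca

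CTSD, the aspartic protease, was the most abundant of the 7 per kilobase of exon in all 5 groups. It made up 89.4% of their summed level per kilobase in cerebellar microglia, 88.4% in frontal cortex microglia and 90.7% in hippocampal microglia, but 48.5% in alveolar macrophages and 59.9% in tissue. Its share was 84.0% to 93.1% in the 24 microglia samples and 43.9% to 53.4% in the 3 samples of alveolar macrophages, so that these ranges did not overlap. The rest of the sum in alveolar macrophages was spread over LGMN (14.9%), CTSH (11.3%), CTSZ (9.88%), CTSB (7.07%), CTSS (5.48%) and CTSL (2.94%). In microglia CTSS was second, with 3.80% to 6.30% over the 3 regions, and in tissue CTSB was second, with 23.2%. CTSB made up 0.392% of the sum in hippocampal microglia.

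**Figure D1:**
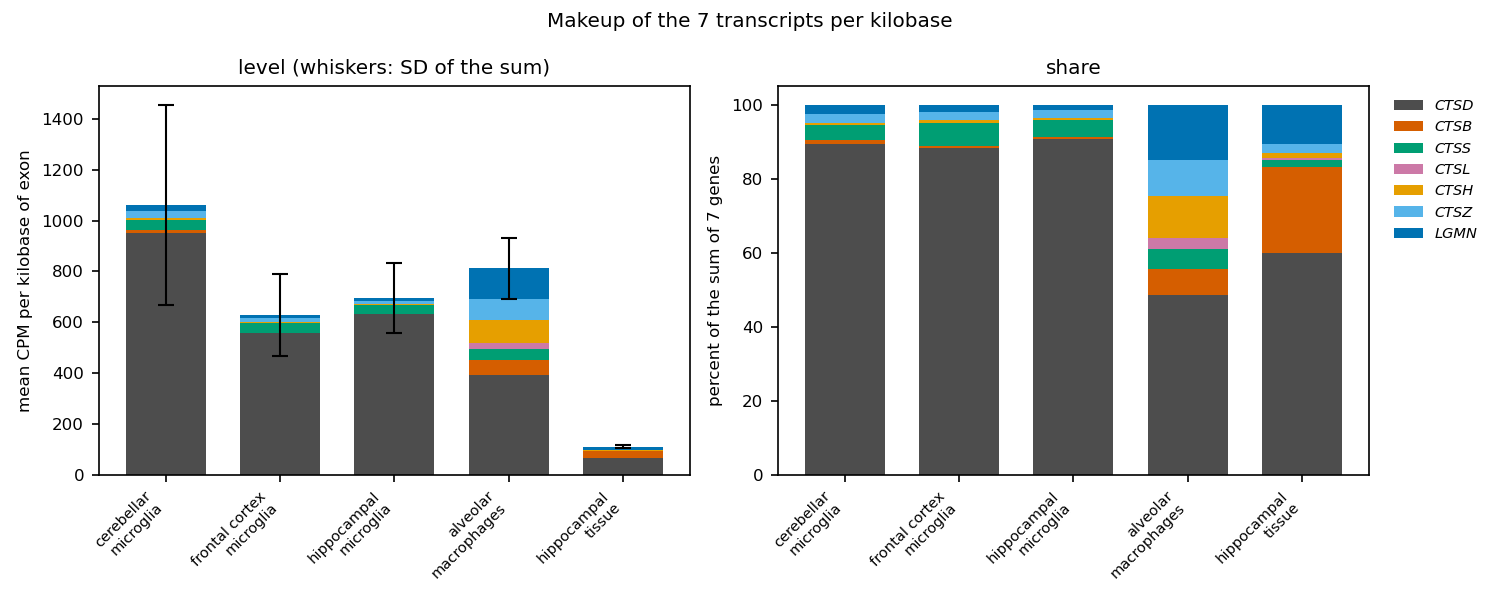
Left, mean CPM per kilobase of exon of the 7 genes, stacked, in each group (n = 8, 8, 8, 3 and 4), with whiskers for the SD of the sum over samples. Right, the same as percent of the sum, where CTSD takes 88.4% to 90.7% in the microglia groups and 48.5% in alveolar macrophages.

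The sum of the 7 per kilobase was 1063 ± 395 CPM per kilobase in the cerebellum (SD, n = 8), 629 ± 161 in frontal cortex microglia (SD, n = 8), 695 ± 138 in hippocampal microglia (SD, n = 8), 812 ± 119 in alveolar macrophages (SD, n = 3) and 109.5 ± 6.61 in tissue (SD, n = 4). The ranges of the 4 groups of sorted cells overlapped in part, and the highest tissue sample (118) was below the lowest sorted sample (425). Within microglia, CTSD was above CTSS in every sample with no overlap, while CTSZ and LGMN overlapped in all 3 regions. In cerebellar microglia CTSZ was above LGMN in 5 of 8 samples, and in frontal cortex microglia LGMN was above CTSZ in 4 of 8. CTSH and CTSB also overlapped, with CTSB above in all 8 cerebellar samples and CTSH above in 6 of 8 frontal cortex and 7 of 8 hippocampal samples.

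The first comparison asks how microglia differ from a macrophage of another tissue. Calls needed an adjusted p below 0.01 plus a fold over 3. Of the 7 members, 5 were called lower in microglia than in alveolar macrophages (CTSH, CTSB, LGMN, CTSZ and CTSL) and none higher, where 22.3% of all 11633 tested genes were called, 10.1% lower and 12.2% higher. CTSS, which trims the invariant chain, and CTSD were not called. All 7 passed the filter on low counts, but CTSH and CTSL passed through the samples of alveolar macrophages alone, so that a difference in this direction was built into their selection. With pig as a block in edgeR, 3 of the 7 were called, where 17.9% of all tested genes were. Because the members were named in lists that include the study's own calls, these counts describe them only. The same holds for the comparisons below.

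CTSH, an aminopeptidase, was at 104.7, 105.4 and 180.3 CPM in the 3 samples of alveolar macrophages. It was at 2.78 to 13.2 CPM in cerebellar (median 8.19), 2.84 to 8.86 in frontal cortex (median 5.61) and 3.58 to 7.19 in hippocampal microglia (median 4.82). No microglia sample came near the macrophage samples, and the log2 fold change was -4.40 (SE 0.24, edgeR quasi-likelihood, Benjamini-Hochberg, adjusted p = 3.15e-15), or 21.1-fold lower.

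CTSB, an endopeptidase that also cuts dipeptides off the end of proteins, was at 156.1, 156.5 and 189 CPM in alveolar macrophages. In microglia it ran from 20.3 to 89.7 CPM in the cerebellum (median 27.0), 4.86 to 18 in the frontal cortex (median 6.995) and 2.94 to 14.02 in the hippocampus (median 7.27). All microglia samples lay below the macrophages, with the cerebellar sample of pig 12821 the nearest. The log2 fold change was -3.63 (SE 0.28, edgeR quasi-likelihood, Benjamini-Hochberg, adjusted p = 4.46e-12) over the mean of the 3 regions, and -2.21 (SE 0.38) for the cerebellum, -4.28 (SE 0.38) for the frontal cortex and -4.40 (SE 0.38) for the hippocampus.

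LGMN was at 210.3, 219 and 292 CPM in alveolar macrophages. In microglia it was at 22.8 to 106.8 CPM in the cerebellum (median 46.3), 10.1 to 39.9 in the frontal cortex (median 28.9) and 5.58 to 32.5 in the hippocampus (median 24.8). The groups did not overlap, and the log2 fold change was -2.94 (SE 0.29, edgeR quasi-likelihood, Benjamini-Hochberg, adjusted p = 5.65e-10), or 7.70-fold lower.

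CTSZ, a carboxypeptidase, was at 104.9, 109.3 and 127 CPM in alveolar macrophages, and at 16.2 to 98.9 CPM in cerebellar (median 36.5), 9.88 to 31.03 in frontal cortex (median 18.5) and 7.12 to 39.6 in hippocampal microglia (median 22.1). The highest cerebellar sample was just below the lowest macrophage sample. The log2 fold change was -2.21 (SE 0.32, edgeR quasi-likelihood, Benjamini-Hochberg, adjusted p = 9.48e-07). With pig as a block it was -1.46 (edgeR, Benjamini-Hochberg adjusted p = 0.00350), which is under the fold threshold, and the cerebellum alone was 2.81-fold lower, also under it.

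CTSL, an endopeptidase of many cell types, had no count in any of the 8 cerebellar and 8 hippocampal microglia samples, and 6 counts (0.202 CPM) in 1 of 8 frontal cortex samples. It had 428, 482 and 3612 counts in alveolar macrophages, or 11.2, 13.2 and 77.0 CPM. Against a floor of 3 counts in each library, it was at least 268-fold higher in alveolar macrophages than in cerebellar and at least 319-fold higher than in hippocampal microglia. These bounds rest on the sample of pig 12984, and without it they were 97.0-fold and 115.2-fold. CTSL was called by edgeR quasi-likelihood, Benjamini-Hochberg (adjusted p = 4.35e-08), but not with pig as a block (adjusted p = 0.0290). The third macrophage sample, of pig 12984, was far above the others in CTSL and also the highest in LGMN, CTSH, CTSZ, CTSS and CTSD. That sample also had the highest sum of border and systemic macrophage markers (1073, against 619 and 623 CPM). It had the highest sum of granulocyte markers too (833, against 379.9 and 538). Its sum of lymphoid markers was the lowest (877.8, against 1217 and 1460 CPM). The part of other cells in its values was not tested.

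CTSS was at 141.8, 155 and 245 CPM in alveolar macrophages and within 108.6 to 219.5 CPM in all 24 microglia samples, so that the groups overlapped. The log2 fold change was -0.25 (SE 0.18, edgeR quasi-likelihood, Benjamini-Hochberg, adjusted p = 0.252). CTSD was at 723, 817 and 839 CPM in alveolar macrophages, 1237 to 3118 CPM in cerebellar (median 1679), 732 to 1682 in frontal cortex (median 1084) and 817 to 1517 in hippocampal microglia (median 1314). All cerebellar samples were above all macrophage samples, and the other regions overlapped with them. The log2 fold change was 0.82 (SE 0.25, edgeR quasi-likelihood, Benjamini-Hochberg, adjusted p = 0.00554), a 1.76-fold difference that did not reach the fold threshold.

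**Figure D2:**
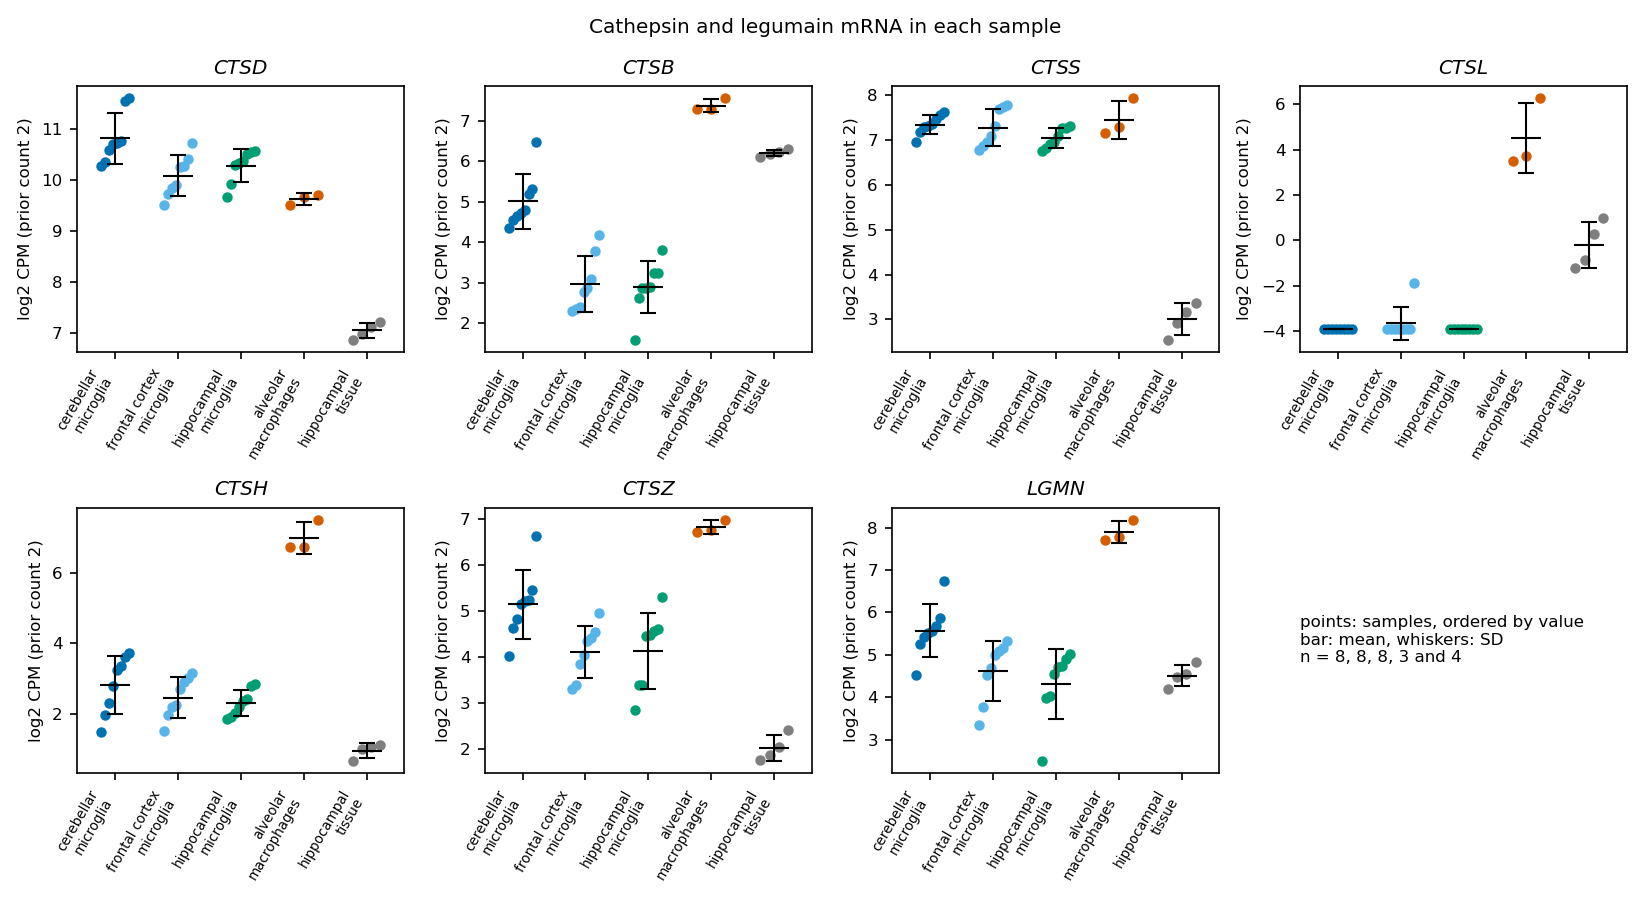
Log2 CPM (prior count 2) of the 7 genes in each of the 31 samples, 1 panel per gene with its own axis; points are samples placed by value within a group, and bars with whiskers are mean and SD (n = 8, 8, 8, 3 and 4). Alveolar macrophages are above every microglia sample for CTSB, CTSL, CTSH, CTSZ and LGMN, and tissue is the lowest group for CTSD, CTSS, CTSH and CTSZ. The share of all tested genes without overlap was not counted.

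Region by region against alveolar macrophages, the members called lower were 4 in cerebellar microglia, where 21.4% of all genes were called (8.97% lower and 12.5% higher). They were 5 in frontal cortex microglia, where 22% of all genes were called (8.82% lower and 13.2% higher), and 5 in hippocampal microglia, where 21.2% were (10.2% lower and 11% higher). The member not called in the cerebellum was CTSZ. Without the cerebellar sample of pig 12821 the mean of the regions still had 5 members called, as it did without any other sample left out in turn.

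The inhibitors differed in both directions between microglia and alveolar macrophages. CST3, cystatin C, a secreted inhibitor of cysteine cathepsins, was at 4878 ± 1205 CPM in microglia (SD, n = 24) and 76.3 ± 26.8 in alveolar macrophages (SD, n = 3), with a log2 fold change of 5.99 (SE 0.32, edgeR quasi-likelihood, Benjamini-Hochberg, adjusted p = 1.52e-15). CSTB, cystatin B, an inhibitor in the cytosol, was at 30.6 ± 8.91 and 148 ± 64.5 CPM, with a log2 fold change of -2.28 (SE 0.20). CST7, cystatin F, which acts within the lysosome of immune cells, was at 0.406 ± 0.469 and 27.7 ± 15.96 CPM, with a log2 fold change of -6.33 (SE 0.94). All 3 tested inhibitors were thus called, CST3 higher and the other two lower in microglia, while CST6 did not pass the filter on low counts. CST7 passed it through alveolar macrophages alone, which favours a lower value in microglia.

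Of 7 other cathepsins tested, 2 were called lower and none higher in microglia than in alveolar macrophages, with a median log2 fold change of -0.12, where the median of all tested genes was 0.06. CTSC, which activates the granule proteases of leukocytes, was at 12.8 ± 3.90 CPM in microglia (SD, n = 24) and 222 ± 18.9 in alveolar macrophages (SD, n = 3), with a log2 fold change of -4.13 (SE 0.17). CTSW, a cathepsin of cytotoxic lymphocytes, was at 5.35 ± 6.92 and 593 ± 193 CPM, with a log2 fold change of -7.44 (SE 0.54), and the lymphoid markers were also highest in alveolar macrophages. Both CTSC and CTSW passed the filter on low counts through alveolar macrophages alone, so that this direction was built into their selection. CTSA (-0.12, SE 0.13), CTSF (1.01, SE 0.17), CTSO (0.81, SE 0.41), CTSV (-0.16, SE 0.85) and NAPSA (0.51, SE 0.30) were not called.

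Other lysosomal genes moved in both directions. Of 25 acid hydrolases and cofactors, 3 were called higher and 2 lower in microglia, with a median log2 fold change of 0.16. SMPD1, the acid sphingomyelinase (log2 fold change -2.59, SE 0.21), and GLB1, a beta-galactosidase (-1.63, SE 0.24), were lower. GLB1 passed the filter on low counts through alveolar macrophages alone. NPC2, which binds cholesterol in the lysosome (2.79, SE 0.25), and ARSB, arylsulfatase B (2.71, SE 0.22), were the highest, and MAN2B1, an alpha-mannosidase, was also called higher (1.75, SE 0.13). Of 20 genes of the lysosomal membrane and proton pump 2 were called, both higher, the pump subunit ATP6V0A1 (4.53, SE 0.19) and SCARB2, a lysosomal membrane protein (3.30, SE 0.23), with a median of 0.26. None of 9 genes of lysosomal sorting and transcription was called, with a median of 0.22. CD74 was called lower in microglia (log2 fold change -2.56, SE 0.26), at 343 ± 179 CPM (SD, n = 24) and 1888 ± 302 CPM in alveolar macrophages (SD, n = 3).

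The second comparison asks which genes of hippocampal microglia stand above or below the tissue they came from. Here the fold had to be over 4. CTSS, CTSD and CTSZ were called higher in hippocampal microglia, CTSB and CTSL lower, and CTSH and LGMN were not called, so that 5 of the 7 members were called where 33.8% of all tested genes were (11.7% higher and 22.1% lower). In tissue, fewer cells of a type and less RNA per cell cannot be told apart.

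CTSS was at 5.79, 7.54, 8.96 and 10.2 CPM in the 4 tissue samples and at 108.6 to 159.6 CPM in the 8 samples of hippocampal microglia (median 130.5). The groups were far apart, with a log2 fold change of 4.04 (SE 0.24, edgeR quasi-likelihood, Benjamini-Hochberg, adjusted p = 5.24e-15), or 16.4-fold higher. CTSD was at 116, 126, 138 and 148 CPM in tissue, all below the hippocampal microglia, with a log2 fold change of 3.27 (SE 0.27, edgeR quasi-likelihood, Benjamini-Hochberg, adjusted p = 1.45e-11), or 9.61-fold higher.

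CTSZ was at 3.35, 3.598, 4.04 and 5.30 CPM in tissue, below every hippocampal microglia sample, with a log2 fold change of 2.297 (SE 0.44, edgeR quasi-likelihood, Benjamini-Hochberg, adjusted p = 3.59e-05). With limma-voom the call was lost (adjusted p = 0.0266). CTSH was at 1.54, 1.95, 2.05 and 2.13 CPM in tissue, also below every microglia sample. Its difference of 2.63-fold (log2 fold change 1.40, SE 0.36, edgeR quasi-likelihood, Benjamini-Hochberg, adjusted p = 8.89e-04) was under the fold threshold.

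CTSB went the other way. It was at 69.4, 72.3, 75.7 and 78.8 CPM in tissue, with all 8 samples of hippocampal microglia at 14.02 CPM or less, and the log2 fold change was -3.22 (SE 0.36, edgeR quasi-likelihood, Benjamini-Hochberg, adjusted p = 5.51e-09), or 9.33-fold lower. In the 4 pigs with both kinds of sample, CTSB was lower in microglia in each, with log2 differences of -3.62 to -3.06. Microglia markers were at 119.4 to 159.9 summed CPM in tissue and 3830 to 5716 in hippocampal microglia, and 5 neuron markers at 1588 to 1816 and 2.37 to 30.1. The part of other brain cells in the tissue's CTSB was not tested.

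CTSL was at 12, 16, 38 and 65 counts in tissue (0.369, 0.490, 1.14 and 1.89 CPM) and at 0 in hippocampal microglia, and was at least 9.16-fold higher in tissue. It was called by edgeR quasi-likelihood, Benjamini-Hochberg (adjusted p = 1.98e-04), and not with pig as a block (adjusted p = 0.0196) nor with limma-voom (adjusted p = 0.0188). LGMN was at 18.4, 22.2, 23.4 and 28.2 CPM in tissue, within the range of hippocampal microglia, with a log2 fold change of -0.06 (SE 0.36, edgeR quasi-likelihood, Benjamini-Hochberg, adjusted p = 0.876). Its direction turned under other settings.

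**Figure D3:**
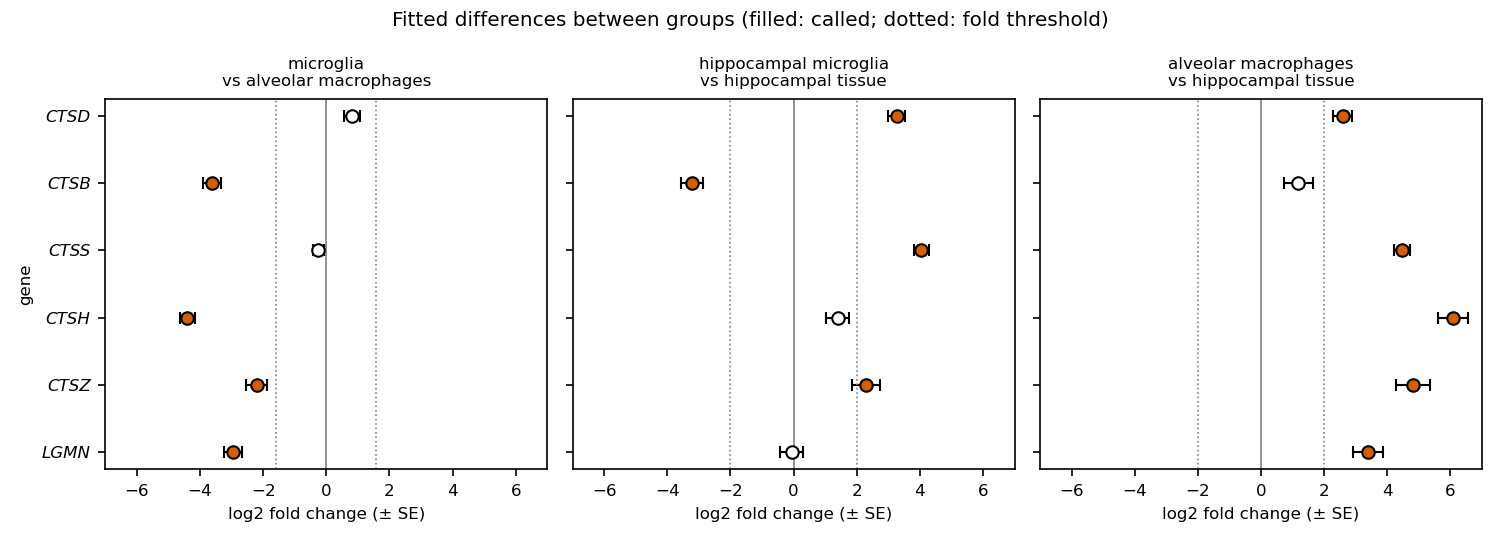
Fitted log2 fold changes with SE (edgeR's quasi-likelihood fit over all 31 samples) of 6 members in 3 comparisons; filled points passed both thresholds, and dotted lines mark the fold threshold. CTSL is left out because 2 microglia groups were at 0, and CTSB is the only one of the 6 that is called lower in both comparisons of microglia.

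Against tissue, more hydrolases were called higher than lower in hippocampal microglia. Of 25 acid hydrolases and cofactors, 10 were called higher and none lower (median log2 fold change 1.35, against -0.08 for all tested genes), led by IFI30, a thiol reductase that opens disulfides for the cathepsins (4.47, SE 0.28), and MAN2B1 (4.18, SE 0.14). Of 20 membrane and pump genes, 5 were called higher and 3 lower, with a median of 0.63. LAPTM5 (4.85, SE 0.22) and CD68 (4.44, SE 0.29) were the most raised, and the pump subunits ATP6V1A (-2.63, SE 0.16) and ATP6V1B2 (-2.29, SE 0.12) the lowest. Of 9 sorting and transcription genes, the transcription factor TFEC (5.13, SE 0.38) was called higher and the sorting receptor SORT1 (-3.53, SE 0.24) lower. Among the inhibitors CST3 was called higher (4.57, SE 0.26), at 222 ± 48.1 CPM in tissue (SD, n = 4), and CSTB (0.20, SE 0.25) and CST7 (-1.86, SE 1.27) were not called. CD74 was called higher (2.23, SE 0.35).

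Of the other 7 cathepsins tested against tissue, NAPSA, an aspartic protease (log2 fold change 3.64, SE 0.36), and CTSO (2.58, SE 0.44) were called higher in hippocampal microglia, and CTSV lower (-4.81, SE 0.88), at 1.31 ± 0.932 CPM in hippocampal microglia (SD, n = 8) and 37.0 ± 2.46 in tissue (SD, n = 4). CTSO passed the filter on low counts through hippocampal microglia alone and CTSV through tissue alone, which favours the directions found. CTSA (1.71, SE 0.14), CTSC (1.30, SE 0.24), CTSF (-0.68, SE 0.15) and CTSW (0.56, SE 0.89) were not called at a fold over 4.

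Alveolar macrophages set against tissue, a comparison that places these groups in the order of levels, had 5 of the 7 members called higher, where 29.6% of all tested genes were called (11.5% higher and 18.1% lower). These were CTSH (log2 fold change 6.08, SE 0.48), CTSZ (4.80, SE 0.54), CTSS (4.47, SE 0.26), LGMN (3.38, SE 0.47) and CTSD (2.59, SE 0.29). CTSB was 2.26-fold higher (SE 0.46 on the log2 scale, edgeR quasi-likelihood, Benjamini-Hochberg, adjusted p = 0.0241) and CTSL missed the threshold (adjusted p = 0.0123), though all 3 macrophage samples were above all 4 tissue samples for both. CTSL was called under 6 of 9 other settings, among them limma-voom (adjusted p = 0.00121) and no scaling (edgeR, adjusted p = 0.00940), and the count was then 6 of 7. CTSH and CTSL had passed the filter on low counts through alveolar macrophages alone, which favours this direction. This comparison shares its groups with those above. The order of levels was thus alveolar macrophages, microglia, tissue without overlap for CTSH and CTSZ, and alveolar macrophages, tissue, microglia without overlap for CTSL. For CTSB it was alveolar macrophages, tissue, cerebellar microglia and then the other two regions, where tissue and cerebellar microglia overlapped. For LGMN alveolar macrophages were above the rest, which overlapped. For CTSS and CTSD tissue was below all sorted groups, and the sorted groups overlapped apart from cerebellar microglia above alveolar macrophages for CTSD. The share of all tested genes with groups apart in this way was not counted, so these orders only describe the members.

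In the other lists, hydrolases, inhibitors and CD74 were called only higher in alveolar macrophages. Other cathepsins, membrane and pump genes and sorting genes were called in both directions. Of the other cathepsins, CTSW (log2 fold change 10.09, SE 1.27), CTSC (5.64, SE 0.32), NAPSA (3.09, SE 0.38) and CTSA (2.00, SE 0.16) were called higher in alveolar macrophages than in tissue and CTSV lower (-4.15, SE 1.28), while CTSO (1.69, SE 0.48) and CTSF (-1.68, SE 0.20) were not called. CTSW, CTSC and CST7 had passed the filter on low counts through alveolar macrophages alone and CTSV through tissue alone. CST7 (5.79, SE 1.86), CSTB (2.61, SE 0.31) and CD74 (4.53, SE 0.43) were called higher, and CST3 (-1.54, SE 0.27) was not called. Of 25 hydrolases and cofactors 10 were called higher and none lower, with IFI30 (5.995, SE 0.32) and GRN, progranulin (3.45, SE 0.21), in front. Of 20 membrane and pump genes 5 were higher and 3 lower, among them LAPTM5 (4.46, SE 0.23), CD68 (3.66, SE 0.30), ATP6V0A1 (-3.47, SE 0.19) and SCARB2 (-3.17, SE 0.24). Of the sorting genes TFEC was called higher (4.43, SE 0.39) and SORT1 lower (-3.31, SE 0.35).

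The third comparison asks whether microglia differ between brain regions. No fold threshold was set here. By the F test over the 3 regions, CTSB was the 1 member of 7 that was called (edgeR quasi-likelihood, Benjamini-Hochberg, adjusted p = 2.22e-05), where 2.03% of all tested genes were. LGMN (adjusted p = 0.0174), CTSD (adjusted p = 0.0176) and CTSZ (adjusted p = 0.0310) did not reach 0.01 in the same edgeR test, and CTSH (adjusted p = 0.213), CTSL (adjusted p = 0.185) and CTSS (adjusted p = 0.335) were further from it. With pig as a block in edgeR, LGMN (adjusted p = 0.00464) and CTSD (adjusted p = 0.00362) were called beside CTSB. That made 3 of 7 in all, where 0.731% of all tested genes were called. The study had already named CTSB and LGMN, from these same samples, among co-expressed genes higher in cerebellar microglia. These calls thus describe the members and are no test against the shares of all genes.

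CTSB was highest in the cerebellum, where its 8 samples were at 20.3, 23.4, 25.1, 26.3, 27.6, 36.6, 39.7 and 89.7 CPM. The frontal cortex samples were at 4.86, 4.99, 5.22, 6.72, 7.27, 8.39, 13.8 and 18 CPM, and those of the hippocampus at 2.94, 6.10, 7.16, 7.25, 7.29, 9.28, 9.41 and 14.02. Every cerebellar sample was above every sample of the other two regions, and the latter overlapped. The share of all tested genes with regions apart in this way was not counted.

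Cerebellar microglia had 4.18-fold more CTSB than frontal cortex microglia (log2 fold change 2.06, SE 0.31, edgeR quasi-likelihood, Benjamini-Hochberg, adjusted p = 1.41e-04), the only member of 7 called where 1.87% of all tested genes were (0.894% higher and 0.971% lower). They had 4.55-fold more than hippocampal microglia (2.19, SE 0.32, edgeR quasi-likelihood, Benjamini-Hochberg, adjusted p = 5.48e-04), again the only member called, with 0.602% of all tested genes (0.438% higher and 0.163% lower). With pig as a block the second difference was 2.38 and no longer called (edgeR, Benjamini-Hochberg adjusted p = 0.0256), in a fit that called 0 of all 11633 genes for that pair of regions. Without the cerebellar sample of pig 12821 the log2 fold changes were 1.72 and 1.84, both still called. Between frontal cortex and hippocampus no member was called (0 of 7, with 0.318% of all tested genes, 0.189% higher and 0.129% lower), and CTSB differed by 0.12 (SE 0.30, edgeR, Benjamini-Hochberg adjusted p = 0.882).

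Within pigs CTSB was higher in the cerebellum than in the frontal cortex in 6 of 6 pigs with both, by 0.55 to 2.90 on the log2 scale (median 1.87). It was higher than in the hippocampus in 4 of 4 pigs, by 1.67 to 3.24 (median 2.27). Pig 12821 had the widest of these differences, with 89.7 CPM in the cerebellum and 9.41 in the hippocampus, and pig 12891 the narrowest, with 26.3 CPM in the cerebellum and 18 in the frontal cortex.

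LGMN, CTSD and CTSZ had the same within-pig direction. The share of all tested genes with such a direction in every pig was not counted, so the numbers of pigs, also for CTSB, only describe these members. LGMN was at 51.6 ± 24.6 CPM in the cerebellum, 26.8 ± 10.7 in the frontal cortex and 22.02 ± 8.89 in the hippocampus (SD, n = 8 each), with overlap between all 3. It was higher in the cerebellum than in the frontal cortex in 6 of 6 pigs, by 0.51 to 2.08 on the log2 scale, and than in the hippocampus in 4 of 4, by 1.49 to 2.02. The fitted differences were 0.94 (SE 0.30, edgeR, Benjamini-Hochberg adjusted p = 0.0626) and 1.23 (SE 0.30, edgeR, Benjamini-Hochberg adjusted p = 0.0221).

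CTSD was at 1915 ± 734 CPM in the cerebellum, 1121 ± 316 in the frontal cortex and 1271 ± 255 in the hippocampus (SD, n = 8 each). It was higher in the cerebellum in 6 of 6 pigs (0.44 to 1.03) and in 4 of 4 pigs (0.34 to 1.08). The difference from the frontal cortex was 0.77 (SE 0.19, edgeR, Benjamini-Hochberg adjusted p = 0.0133), and with pig as a block 0.78 and called (edgeR, Benjamini-Hochberg adjusted p = 0.00233), so that 2 of 7 members were called there, with 1.27% of all tested genes. It was also called when the frontal cortex sample of pig 12599 (adjusted p = 0.00486), or the cerebellar sample of pig 12891 (adjusted p = 0.00865) or 12902 (adjusted p = 0.00863), was left out of the edgeR fit. The difference from the hippocampus was 0.59 (SE 0.19, edgeR, Benjamini-Hochberg adjusted p = 0.0694).

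CTSZ was at 40.4 ± 25.2 CPM in the cerebellum, 18.4 ± 7.10 in the frontal cortex and 20.0 ± 10.5 in the hippocampus (SD, n = 8 each), and higher in the cerebellum in 6 of 6 pigs (0.69 to 1.44) and 4 of 4 pigs (0.64 to 2.32). The fitted differences were 1.13 (SE 0.32, edgeR, Benjamini-Hochberg adjusted p = 0.0362) and 1.01 (SE 0.32, edgeR, Benjamini-Hochberg adjusted p = 0.0697). CTSS was higher in the cerebellum in 5 of 6 and 4 of 4 pigs, by a median of 0.09 and 0.23 on the log2 scale, and CTSH in 3 of 6 and 3 of 4 pigs. In the fit CTSS differed by 0.03 (SE 0.15) from the frontal cortex and 0.29 (SE 0.15) from the hippocampus, and CTSH by 0.44 (SE 0.27) and 0.66 (SE 0.27).

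**Figure D4:**
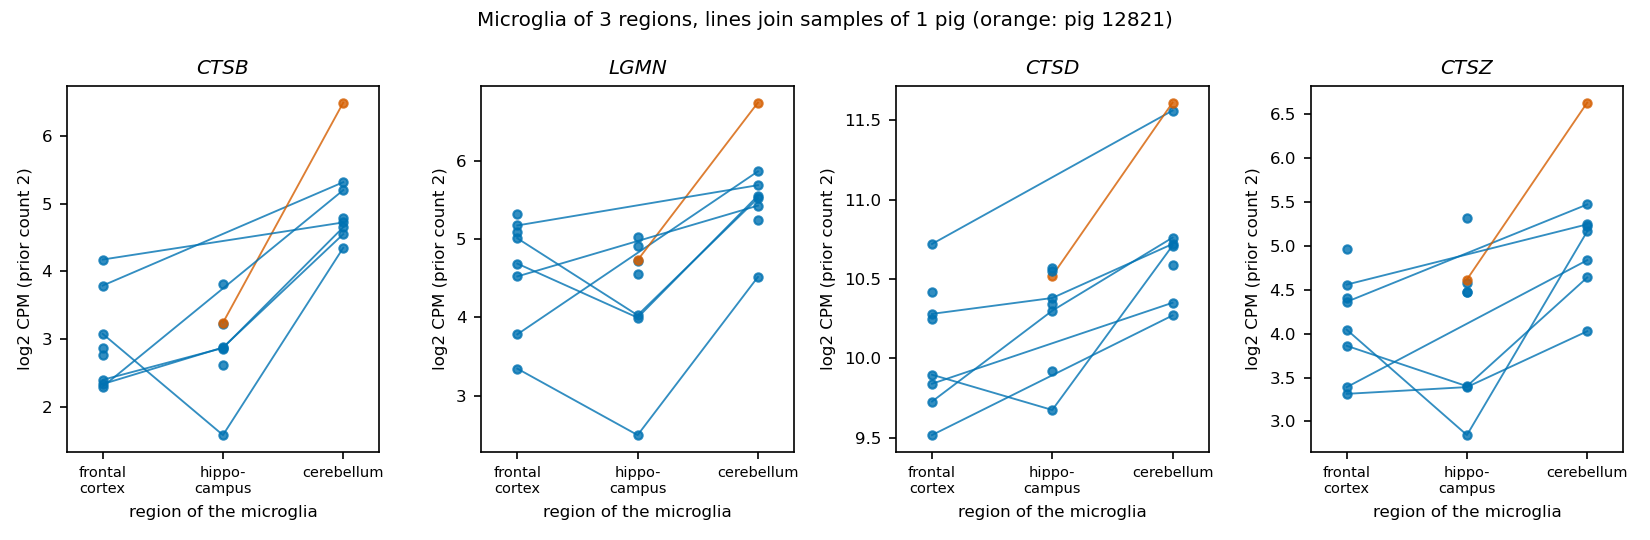
Log2 CPM (prior count 2) of CTSB, LGMN, CTSD and CTSZ in microglia of the 3 regions, with lines joining samples of the same pig. Every line that reaches the cerebellum rises to it (6 pigs from the frontal cortex, 4 from the hippocampus, 3 of them from both), and the cerebellar sample of pig 12821, in orange, is the highest of the 24 in all 4 panels.

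The 6 stress response genes measured, which dissociation can induce, also stood higher in the cerebellum, at 356.6 to 807 summed CPM against 125 to 427 in the frontal cortex and 233 to 393 in the hippocampus. Of the 6, JUN and HSPB1 were called between regions, both higher in the cerebellum than in the frontal cortex. None of the 6 was called between the cerebellum and the hippocampus. The part of these stress response genes in the regional values of CTSB was not tested. The 6 microglia markers (median sums 4607, 5049 and 5115 CPM) and the 4 border and systemic macrophage markers (3.34, 3.92 and 3.26 CPM) had no member called between regions. No neuron, astrocyte, oligodendrocyte or endothelium marker was called between regions. In the frontal cortex, pigs 12599 and 12891 had the highest oligodendrocyte (1662 and 926.8 CPM) and neuron sums (135.6 and 79.38). The medians were 284.8 and 10.23. Their border macrophage sums (20.91 and 30.55) and CTSB (13.77 and 18 CPM) were also the highest there. Cerebellar sums reached 719.6 and 95.19 CPM. The part of other cells in the regional values of CTSB was not tested. Of 8 lymphoid markers 1 was called, CD3D, of the T cell receptor complex. It was higher in the cerebellum (log2 fold change 4.87, SE 0.99) and the frontal cortex (6.003, SE 0.99) than in the hippocampus. The means were 1.01, 2.24 and 0.0316 CPM. The hippocampal mean was below the floor of 3 counts (0.106 CPM on average there), so the size of these fold changes is not resolved. The cerebellar sample of pig 12821 was the highest in CTSB, LGMN, CTSD and CTSZ. Among the 8 cerebellar samples, it also had the highest sums of border and systemic macrophage (13.7 CPM), lymphoid (199.9) and astrocyte markers (467). Its sums of neuron (13.7), oligodendrocyte (191.3), endothelium (2.00) and granulocyte markers (21.7) were not the highest. The part of other cells in its values was not tested.

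Of 9 sorting and transcription genes, 3 were called between regions. IGF2R, the receptor that carries lysosomal enzymes marked with a phosphorylated mannose, was higher in the cerebellum, at 139.6 ± 23.3 CPM against 100.2 ± 19.8 and 97.7 ± 8.08 (SD, n = 8 each), a log2 fold change of 0.48 (SE 0.10) from the frontal cortex and 0.52 (SE 0.10) from the hippocampus. MITF, a transcription factor of the family of TFEB, was higher too, at 58.7 ± 16.02 CPM against 22.4 ± 6.45 and 25.7 ± 5.67 (1.39, SE 0.20, and 1.19, SE 0.20). GNPTAB, a subunit of the enzyme that adds this mark, was lower, at 158 ± 11.2 CPM against 265.9 ± 25.6 and 243 ± 24.5 (-0.75, SE 0.07, and -0.62, SE 0.07).

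Of 25 hydrolases and cofactors, 2 were called by the F test, of which 1 is described here. GAA, the acid alpha-glucosidase, was called higher in the cerebellum than in both other regions (0.83, SE 0.14, and 0.75, SE 0.14). None of 20 membrane and pump genes and none of 3 inhibitors was called between regions, with CST3 at 4116 ± 819, 5233 ± 1397 and 5284 ± 1075 CPM (SD, n = 8 each), CSTB at 31.2 ± 8.01, 33.0 ± 12.2 and 27.7 ± 5.69 and CST7 under 0.57 CPM on average in each region. CD74 was called higher in the cerebellum than in the frontal cortex (1.26, SE 0.26) but not than in the hippocampus (0.24, SE 0.26).

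Of the other cathepsins, NAPSA was called higher in the cerebellum than in the frontal cortex (1.12, SE 0.24), and CTSW, a gene of lymphocytes, higher in the frontal cortex than in the hippocampus (3.71, SE 0.70). CTSA, at 147 ± 17.1, 118 ± 13.8 and 109.9 ± 19.9 CPM, CTSC, CTSF, CTSO and CTSV were not called in any pair of regions. Between frontal cortex and hippocampus no gene was called in the lists of hydrolases, membrane and pump, sorting or inhibitors.

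The members were also compared with each other over the 24 microglia samples, as a description over samples that share pigs and regions. The Pearson correlation of log2 CPM was 0.71 between CTSB and LGMN, 0.66 between CTSB and CTSD, 0.69 between CTSB and CTSZ, 0.69 between LGMN and CTSZ, and 0.70 between CTSD and CTSZ (n = 24). With the mean of each region removed these were 0.47, 0.36, 0.46, 0.54 and 0.55, and without the cerebellar sample of pig 12821 as well they were 0.35, 0.17, 0.28, 0.44 and 0.43. LGMN and CTSD had 0.59, and 0.40 and 0.28 in these steps. CTSS had 0.19 with CTSB, and -0.10 with the region means removed, but 0.56 with LGMN (then 0.48 and 0.46), 0.54 with CTSZ (0.52 and 0.51) and 0.53 with CTSH (0.48 and 0.45). The other 5 pairs had 0.29 to 0.49.

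The tested genes with a symbol whose log2 CPM followed each member most closely over the 24 microglia samples differed between members. For CTSB they were ASTN2 (r = 0.90), IGF2R (0.86) and AEBP1 (0.83), and with region means removed 0.64, 0.66 and 0.59. For LGMN they were SPP1 (0.83), SCPEP1 (0.81) and DNASE2 (0.78), for CTSZ SPP1 (0.83), ANXA5 (0.82) and AEBP1 (0.81), and for CTSD LAMP1 (0.85), C5AR1 (0.84) and NFKB2 (0.83). For CTSS they were GATM (0.85), ASAH1 (0.83) and SLC25A3 (0.79), and for CTSH YES1 (0.76), NCOA1 (0.70) and FTL (0.67). YES1 was at a mean of only 0.837 CPM in the cerebellum, 0.219 in the frontal cortex and 0.0 in the hippocampus, so its r rests on low counts. SPP1, osteopontin, was at a mean of 109.3 CPM in the cerebellum, 35.0 in the frontal cortex and 36.8 in the hippocampus, and LAMP1, a glycoprotein of the lysosomal membrane, at 215.5, 167.5 and 170.1. The removal of region means left r = 0.75 for LGMN with SPP1 and 0.78 for CTSD with LAMP1. All of these correlations include the cerebellar sample of pig 12821, and r without it was not computed for these genes. CTSL, with counts in 1 microglia sample, was given no such genes.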

How the data were processed

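RNA of sorted microglia, sorted alveolar macrophages and hippocampal tissue of pigs was sequenced with a SMARTer stranded total RNA kit. Per the labels and the study's methods, the authors aligned reads with HISAT2 to Sscrofa11.1 and deposited StringTie raw read counts per gene. The strand setting of the counting is not given in the sources used here. Groups and pig tag numbers came from the labels, and each sample of a group came from a separate pig. Total counts were 18438494 to 43477403 per sample, which puts 3 counts at 0.064 to 0.146 CPM; bounds and floors cover counting error only.

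A gene was kept where every sample of 1 or more groups exceeded 10 CPM (11633 of 31907). The counts were fitted over all 31 samples with edgeR 4.0.16 in R 4.3.3 (TMM scaling, robust quasi-likelihood, Benjamini-Hochberg adjustment over all tested genes). Calls needed an adjusted p under 0.01, with a fold over 3 against alveolar macrophages, over 4 against tissue and none between regions. Log2 CPM used a prior count of 2, and SEs were taken from the F statistic. The scripts were tested on simulated counts. Levels per kilobase used the union of RefSeq exons, and promoters were read from the genome of the same build with Python 3.11.15. Alternatives were other scaling and filters, limma-voom (limma 3.58.1), DESeq2 1.42.0, pig as a block, the compared groups alone and each sample left out.

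The 7 members, the lists and the markers were chosen with earlier results of these data known. Named genes were all members, the other cathepsins and inhibitors, the called genes with the largest differences of the other lists, and the 3 genes most correlated with each member. Of 15 pigs, 9 gave more than 1 sample. Because same-numbered samples come from the same pig, the numbers pair the samples, and their deviations from the group means correlated at 0.079 on average over 25 pairs, against -0.005 between different pigs; over 13 pairs of microglia the mean was 0.125, with 9 over 0.1, and limma's within-pig estimate was 0.205. The result of 1 gene of the hydrolase list, called between regions, is not reported here. The CTSL bounds without single macrophage samples were added after seeing the data.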

Additional observations from a re-analysis of the deposited data

Results flagged for a closer look

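In 26 sets of member values within groups of 4 to 8 samples, 3 held a sample far from the others by Dixon's test on CPM. This leaves aside 1 set whose other samples were all at 0. Chance gives about 1 in 20, but all 3 were the same library in correlated members, so they are not separate sets against that rate. The cerebellar sample of pig 12821 was such a sample for CTSB, at 89.7 CPM with the other 7 at 20.3 to 39.7. It was also one for LGMN, at 106.8 CPM with the others at 22.8 to 58.1, and for CTSZ, at 98.9 CPM with the others at 16.2 to 44.2. The set with the other samples at 0 was CTSL in the frontal cortex, where the sample of pig 12750 was at 0.202 CPM; there any value above 0 would pass the test, so it is not counted with the other 3.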

How the results depend on the processing

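The number of members called was 5 against alveolar macrophages, 5 for hippocampal microglia against tissue, 1 by the F test of regions, 1 for cerebellum against frontal cortex, 1 for cerebellum against hippocampus, 0 for frontal cortex against hippocampus and 5 for alveolar macrophages against tissue. In edgeR with the pig as replicate block the first became 3, microglia against tissue 4, the F test 3, cerebellum against frontal cortex 2 and cerebellum against hippocampus 0. With pig as a random block in limma-voom, microglia against tissue had 3, the F test 3 and cerebellum against frontal cortex 2. Limma-voom without the block gave 3 against tissue. The fit on the compared groups alone also gave 3, but there CTSH, CTSL and CTSZ did not pass the filter on low counts and were not tested. Alveolar macrophages against tissue had 6 without scaling, with either other filter, with limma-voom, with its random block and in the compared groups alone. DESeq2 gave 4 by the F test, 3 for cerebellum against frontal cortex and 2 for cerebellum against hippocampus. With each sample left out in turn, the F test gave 1 to 2 (CTSD called without the frontal cortex sample of pig 12599, adjusted p = 0.00759 in edgeR, and LGMN without the cerebellar sample of pig 12758, adjusted p = 0.00987), cerebellum against frontal cortex 1 to 2, and the other counts did not move.

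Differences that turned sign were all uncalled. For LGMN in microglia against tissue, the log2 fold change was 0.15 without scaling and 0.0500 with the pig block. For CTSS in cerebellum against frontal cortex it was -0.0559 without scaling, -0.0195 with filterByExpr and -0.0195 without a filter, and against alveolar macrophages 0.0801 with the pig block. Between frontal cortex and hippocampus, CTSB was at -0.0807 with limma-voom, and CTSZ at 0.39 with the pig block and 0.0530 with the random block. With the random block CTSL was at 0.0434 for cerebellum against frontal cortex and -0.00135 for frontal cortex against hippocampus. Leaving out single samples gave -0.0371 to 0.105 for CTSS between cerebellum and frontal cortex, -0.382 to 0.0434 for CTSS against alveolar macrophages, -0.12 to 0.30 for CTSB and -0.27 to 0.10 for CTSZ between frontal cortex and hippocampus, and -0.167 to 0.0743 for LGMN against tissue. The causes were not tested. The 3 samples of alveolar macrophages and the low CTSL counts limit what can be resolved.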
